A study of Saccharomyces cerevisiae with 8 samples.

Results

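The 37 genes described here encode the nuclear subunits of the yeast respiratory chain and ATP synthase, and they were taken by systematic name, whatever their values, from the 6600 open reading frames in the count files. They are the 4 subunit genes of succinate dehydrogenase (complex II), 3 NADH dehydrogenase genes, 9 genes of the cytochrome bc1 complex (complex III) with the cytochrome c gene CYC1, 8 genes of cytochrome c oxidase (complex IV) and 12 genes of ATP synthase (complex V). All 37 passed the filter on low counts, as did 5879 of the 6600 open reading frames.

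Budding yeast has no proton-pumping complex I. The inner-membrane enzymes Ndi1, facing the matrix, and Nde1 and Nde2, facing the cytosolic side, pass electrons from NADH to ubiquinone instead. Complexes III and IV then carry the electrons to oxygen and pump protons, and ATP synthase uses the gradient. The catalytic cores of complexes III and IV and the membrane rotor of ATP synthase contain subunits made from mitochondrial DNA, so the nuclear subunits must be matched with partners from a separate genome. On glucose medium such as YPD, cells mainly ferment, and respiratory genes are held at a reduced level.

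RNA was taken from haploid budding yeast in which Ceg1, the guanylyltransferase that caps nascent mRNA, can be pulled out of the nucleus. Every strain was MATalpha with tor1-1, fpr1::NAT, RPL13AxFKB12::TRP and CEG1-FRB::HIS, so that rapamycin ties the FRB tag to the tagged ribosomal protein in cells made resistant to rapamycin itself. The ceg1-AA strain has XRN1, which encodes the main cytoplasmic 5′ to 3′ mRNA exonuclease, and the ceg1-AA/xrn1D strain carries a disrupting KAN cassette that the labels write as KAN::XRN1 for replicate 1 and KAN::XRN3 for replicate 2. Cells in YPD at 30 °C received DMSO or rapamycin at 1 µg/mL for 45 min, which gave 2 ceg1-AA DMSO, 2 ceg1-AA rapamycin, 1 ceg1-AA/xrn1D DMSO and 2 ceg1-AA/xrn1D rapamycin libraries. The second ceg1-AA/xrn1D DMSO sample was not analysed here. No label says that replicates came from separate cultures, so p-values measure the spread between these libraries, which may be technical.

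Library totals ran from 935651 to 3385761 counts, and the 37 genes took 0.318% to 0.517% of them. XRN1 had 338 to 794 counts in the ceg1-AA libraries and 0 in all 3 ceg1-AA/xrn1D libraries, whichever cassette name the label gave. The alpha-mating-type genes MF(ALPHA)1 and STE3 had at least 380 and 158 counts in every library, and the a-specific pheromone genes MFA1 and MFA2 had at most 1. STE2, another a-specific gene, had 11 to 36 counts in the ceg1-AA libraries and 191 to 211 in the ceg1-AA/xrn1D libraries. Anchor-away moves the Ceg1 protein, so CEG1 RNA does not check the treatment. The replicates were not alike for the respiratory genes: 32 of the 37 were higher in replicate 1 than in replicate 2 of ceg1-AA DMSO, by a median of 0.46 on the log2 scale against 0.03 for all genes tested. In ceg1-AA rapamycin 34 of 37 were higher in replicate 1, by a median of 0.30, and in ceg1-AA/xrn1D rapamycin 23 of 37, by a median of 0.10. The 2 ceg1-AA DMSO libraries also differed in HXK1, a glucose-repressed hexokinase gene, at 116 and 1453 CPM (counts scaled to the size of the library by the TMM method). The part of this replicate difference in the results below was not tested, and calls of the 2 tested comparisons that depend on the libraries used are stated with the genes.

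Many members share letters of a known promoter element. The Hap2/3/4/5 complex, the activator of respiratory genes in yeast, binds elements built around CCAAT. The letters TNATTGGT were searched on both strands in the 500 bases before each open reading frame of RefSeq assembly R64, a search chosen after expression values had been seen. They occurred upstream of 17 of 37 members (45.9%), of 4 of 50 assembly and expression factors of the same complexes (8%), and of 509 of 5898 protein-coding genes (8.63%). Among the 18 sites, 16 read ACCAATNA in the direction of the gene, and 15 lay 100 to 250 bases from the start codon, with a median distance of 200 bases. A match is a description of the letters and does not show that the factor bound. The sites of the genes whose RNA levels changed under rapamycin are shown first, followed by COX6, which reads the element in the other direction, each with the 8 matched bases in capitals and written 5′ to 3′ on the gene's strand.
NDI1, chrXIII:30017-30046, minus strand: tattcattcggACCAATCAtatgaaggcat
ATP3, chrII:315368-315397, plus strand: cgtgatggagaACCAATGAgcggcgagtaa
ATP7, chrXI:408149-408178, minus strand: gtaaaagatacACCAATTAccacttgctgc
ATP14, chrXII:722553-722582, minus strand: gccatacacgaACCAATTAtgcatcataaa
COX6, chrVIII:209477-209506, plus strand: gaaaagggaccTAATTGGTccggtcaaagc

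Levels were compared between genes by the deposited TPM, a value per length. NDE1 was the highest member in 6 of the 7 libraries, the exception being ceg1-AA DMSO replicate 2, where TIM11 was higher at 315 TPM. NDE1, the main external NADH dehydrogenase, had 460 and 257 TPM in the DMSO libraries of ceg1-AA, 660 and 545 TPM in ceg1-AA rapamycin, 975 TPM in ceg1-AA/xrn1D DMSO, and 684 and 736 TPM in ceg1-AA/xrn1D rapamycin. NDE2, its paralogue, was the lowest member in every library, from 0.345 to 26.4 TPM. The subunit genes of 1 complex were not at equal RNA levels. In ATP synthase the lowest and highest TPM in ceg1-AA DMSO replicate 1 were 84.9 for ATP14 and 434 for TIM11, and in complex III they were 32.3 for QCR10 and 366 for QCR6. TIM11, which encodes the e subunit that links ATP synthase dimers, was the highest complex V gene by TPM in each of the 7 libraries. TPM includes a deposited bias factor, and without it ATP2 at 402 was above TIM11 at 379 in ceg1-AA DMSO replicate 1. QCR10 was the lowest complex III gene in each of the 7. The top gene of complex II differed between the 2 ceg1-AA DMSO replicates: SDH3 had the highest TPM in ceg1-AA DMSO replicate 1 at 121, and SDH2 was highest in the other 6 libraries, from 109 to 309 TPM.

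**Figure D1:**
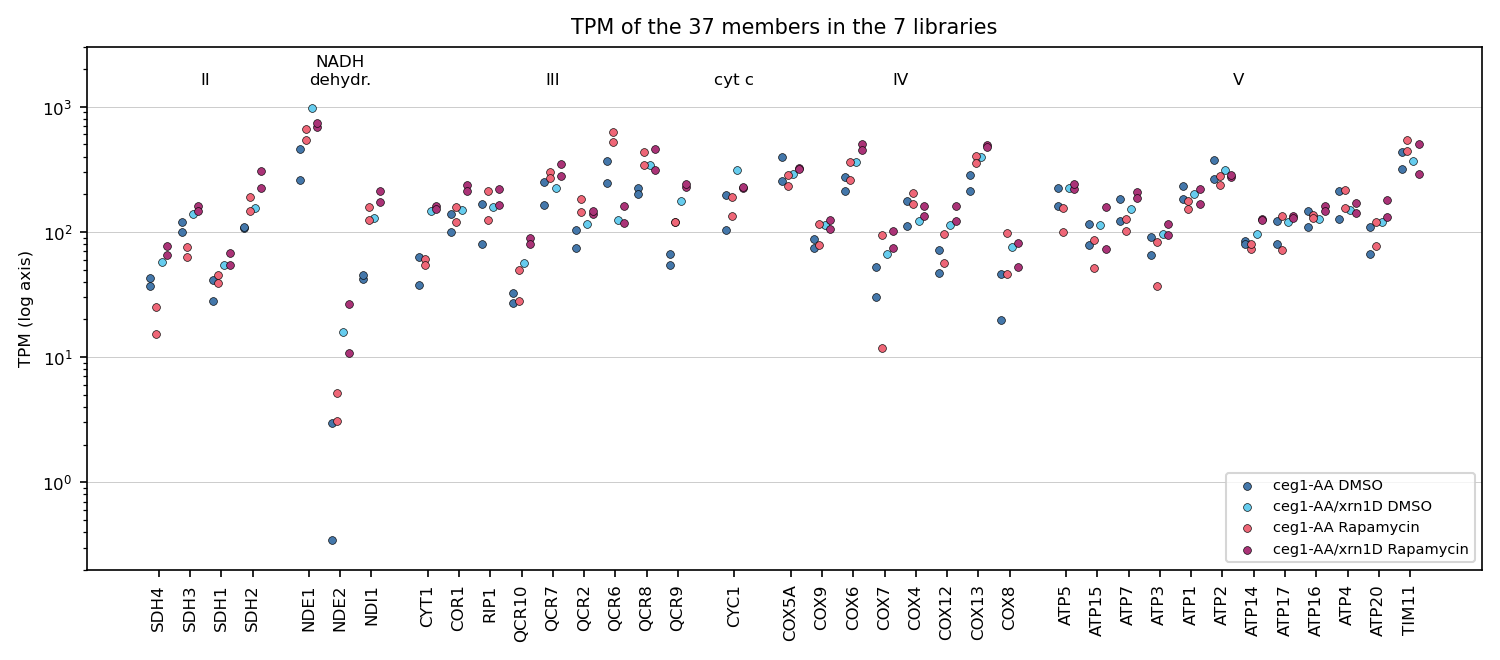
Deposited TPM of the 37 genes (log axis), grouped by complex, with 1 point per library coloured by group. NDE2 is the lowest gene in each library and NDE1 the highest in 6 of 7, and QCR6 is lower in the 3 ceg1-AA/xrn1D libraries, at 117 to 162 TPM, than in the 4 ceg1-AA libraries, at 246 to 624 TPM.

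Rapamycin was first compared with DMSO in ceg1-AA, which asks how these mRNAs respond to removal of Ceg1 from the nucleus when Xrn1 is present. NDI1, the internal NADH dehydrogenase, rose, while 9 members fell: the 2 membrane anchors of complex II (SDH3, SDH4), COX5A, and 6 subunits of ATP synthase (ATP1, ATP2, ATP3, ATP5, ATP7, ATP14). No complex III gene passed the threshold. Of the 37 members, 1 was higher and 9 were lower at an edgeR adjusted p under 0.05, beside 24.3% higher and 22.8% lower among all genes tested. The share of lower members, 24.3%, was thus close to that of all genes, and the share of higher members, 2.7%, was below it. The median log2 fold change of the members was -0.26, and that of all genes tested was 0.11. Without an overlap between the groups were 3 higher members (NDI1, QCR8, QCR9) and 12 lower ones, beside 40.8% and 32.6% of all genes tested. A 2-fold difference in each pair was met by 0 members upward and 1 downward, SDH4, beside 4.88% and 7.38%. RNA came from whole cultures, so a lower value in fewer cells and less RNA per cell cannot be told apart. Fold changes are relative to the other RNA of a library, and rose and fell have that sense throughout.

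Across the genome the log2 fold change in this comparison was lower at higher expression levels. Its Spearman correlation with the mean ceg1-AA DMSO CPM was -0.50 across 5879 genes, which are not independent. Genes were put in 5 equal bins of this mean CPM, a count measure that is not per length. The same DMSO libraries also enter the fold change, so noise in them can make the correlation and the trend over the bins negative. In the highest bin the median was -0.67 for all genes and -0.67 for the 4 members in it. In the next bin, which held 15 members, the medians were -0.10 for all genes and -0.16 for members. In the 3 lower bins the members lay below the other genes, at -0.43 against 0.26, -0.67 against 0.38 and -0.14 against 0.62, with 6, 5 and 7 members.

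Among the NADH dehydrogenases, NDI1 (YML120C) stood at 94.3 and 101 CPM with DMSO and at 231 and 182 CPM with rapamycin. Both rapamycin libraries were above both DMSO libraries. The log2 fold change was 1.08 ± 0.17 (SE, 2 libraries a group, edgeR adjusted p = 0.000597), and it passed the threshold in 12 of 13 alternatives, the exception being scaling to mitochondrially encoded transcripts. NDE1 had 1121 and 626 CPM under DMSO and 1045 and 852 CPM under rapamycin, so the groups overlapped, and its log2 fold change was 0.12 ± 0.25 (SE). It was called higher without ceg1-AA DMSO replicate 1 (0.60, edgeR adjusted p = 0.0392) and with total counts (0.63, edgeR adjusted p = 0.0372). NDE2 had 0.820 and 7.10 CPM under DMSO and 4.76 and 7.95 CPM under rapamycin, and the groups overlapped at this low level. The TPM ratio of NDI1 to NDE1, which does not depend on library scaling, was 0.0915 and 0.176 under DMSO and 0.240 and 0.230 under rapamycin.

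In complex II the 2 anchor genes separated from the catalytic pair. SDH3 and SDH4 encode the membrane subunits that hold heme and the quinone site, and SDH1 and SDH2 encode the flavoprotein and the iron-sulfur protein. SDH4 (YDR178W, chrIV:817950-818495) had 32.0 and 27.4 CPM under DMSO and 12.4 and 7.95 CPM under rapamycin. SDH3 (YKL141W, chrXI:179667-180263) had 99.99 and 82.1 CPM under DMSO and 41.0 and 35.8 CPM under rapamycin. In both genes each rapamycin library was below each DMSO library. The log2 fold change of SDH4, -1.54 ± 0.33 (SE, edgeR adjusted p = 0.00319), was the lowest of any member, and that of SDH3 was -1.25 ± 0.19 (SE, edgeR adjusted p = 0.000524). Both calls held in all 13 alternatives, including scaling by total counts and scaling to mitochondrially encoded transcripts. SDH2 had 122 and 126 CPM under DMSO and 143 and 115 CPM under rapamycin. SDH1 had 77.0 and 114 CPM under DMSO and 80.9 and 68.6 CPM under rapamycin. Their groups overlapped, and their log2 fold changes were 0.06 ± 0.18 and -0.34 ± 0.22 (SE). SDH1 was called lower without ceg1-AA DMSO replicate 1 (-0.60, edgeR adjusted p = 0.0304), and SDH2 was called higher with total counts. The summed TPM of SDH3 and SDH4 over that of SDH1 and SDH2 is a ratio within each library that scaling cannot move. In ceg1-AA it was 1.22 and 0.909 under DMSO and 0.427 and 0.418 under rapamycin. In ceg1-AA/xrn1D it was 0.94 in the 1 DMSO library and lower in both rapamycin libraries, at 0.63 and 0.75.

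No complex III gene passed the threshold, nor did CYC1. The 9 complex III genes ran from -0.41 for CYT1, the cytochrome c1 gene, to 0.48 for QCR9, a small subunit whose gene has an intron. None of them was called by DESeq2 either, and 0 of 9 had an unadjusted edgeR p under 0.05. Other settings did call some of them, in opposite directions. Without ceg1-AA DMSO replicate 1, QCR6 was called higher (0.69, edgeR adjusted p = 0.00595), as was QCR2. Without ceg1-AA DMSO replicate 2, CYT1 (-0.71, edgeR adjusted p = 0.0116), RIP1 (-0.57, edgeR adjusted p = 0.0387) and CYC1 (-0.79, edgeR adjusted p = 0.0104) were called lower, as was COR1. Total counts alone called QCR2, QCR6, QCR8 and QCR9 higher. RIP1, the Rieske iron-sulfur protein gene, had 151 and 73.0 CPM under DMSO and 126 and 77.5 CPM under rapamycin. CYC1, which encodes the main cytochrome c isoform, had 78.7 and 43.6 CPM under DMSO and 51.4 and 39.8 CPM under rapamycin. In both genes the higher value belonged to replicate 1 of each group, and the groups overlapped. The log2 fold changes were -0.16 ± 0.31 for RIP1 and -0.44 ± 0.28 for CYC1 (SE). CYT1 had 84.4 and 50.7 CPM under DMSO and 53.3 and 49.7 CPM under rapamycin, and QCR9 had 13.1 and 17.2 CPM under DMSO and 20.0 and 21.9 CPM under rapamycin. QCR6, an acidic subunit close to cytochrome c1, had 214 and 140 CPM under DMSO and 241 and 213 CPM under rapamycin (log2 fold change 0.35 ± 0.20, SE). Of these 3, QCR9 alone had no overlap between groups, and QCR8 had none either, at 75.4 and 73.0 CPM under DMSO and 102 and 88.4 CPM under rapamycin. The other members of the complex (COR1, QCR2, QCR7, QCR8, QCR10) ran from -0.40 to 0.36.

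In complex IV 1 of 8 genes passed the threshold. COX5A (YNL052W), the subunit V isoform used with oxygen, had 243 and 152 CPM under DMSO and 115 and 99.4 CPM under rapamycin. The groups did not overlap, and the log2 fold change was -0.89 ± 0.21 (SE, edgeR adjusted p = 0.00654). The call was lost with total counts and without ceg1-AA rapamycin replicate 2 (log2 fold changes from -1.53 to -0.37 over 13 alternatives). COX8 had 13.1 and 6.08 CPM under DMSO and 19.0 and 9.94 CPM under rapamycin, which gave the highest log2 fold change of the complex, 0.55 ± 0.50 (SE), with overlapping groups. COX4, whose product holds a zinc ion, had 109 and 67.9 CPM under DMSO and 83.8 and 72.5 CPM under rapamycin. COX12 had 21.3 and 15.2 CPM under DMSO and 20.0 and 12.9 CPM under rapamycin. COX4 and COX12 overlapped between the groups, and the remaining 4 genes (COX6, COX7, COX9, COX13) had log2 fold changes from -0.26 to 0.06.

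ATP synthase held 6 of the 9 members that fell, which is 50% of its genes, beside 22.8% of all genes tested. All 12 of its genes had a log2 fold change below 0, with a median of -0.80. In every pair of libraries 8 were lower (66.7%, beside 32.6% of all genes tested). ATP1 and ATP2, the alpha and beta subunits of the catalytic head, fell, with log2 fold changes of -0.96 ± 0.18 and -0.94 ± 0.19 (SE, edgeR adjusted p = 0.00165 and 0.00244). Of the central stalk, ATP3 (gamma) fell at -0.98 ± 0.29 (SE, edgeR adjusted p = 0.0183), while ATP15 (epsilon) at -1.04 ± 0.47 and ATP16 (delta) at -0.51 ± 0.20 did not pass the threshold (edgeR adjusted p = 0.0934 and 0.0581). Of the peripheral stalk, which holds the head still, ATP5, ATP7 and ATP14 fell and ATP4 at -0.47 ± 0.23 did not pass. ATP5 (YDR298C) had 199.98 and 143 CPM under DMSO and 91.4 and 61.6 CPM under rapamycin, with no overlap. Its log2 fold change, -1.17 ± 0.23 (SE, edgeR adjusted p = 0.00196), was the lowest of the complex and held in all 13 alternatives. ATP17, ATP20 and TIM11 did not pass either, at -0.52, -0.41 and -0.12. TIM11 had 149.99 and 118 CPM under DMSO and 130 and 117 CPM under rapamycin, so it overlapped between the groups. The call of ATP14 was lost in 8 of 13 alternatives, and total counts alone left ATP5 as the only complex V gene past the threshold. Without ceg1-AA DMSO replicate 2, ATP4, ATP15 and ATP16 were called lower as well, and ATP14 was not.

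**Figure D2:**
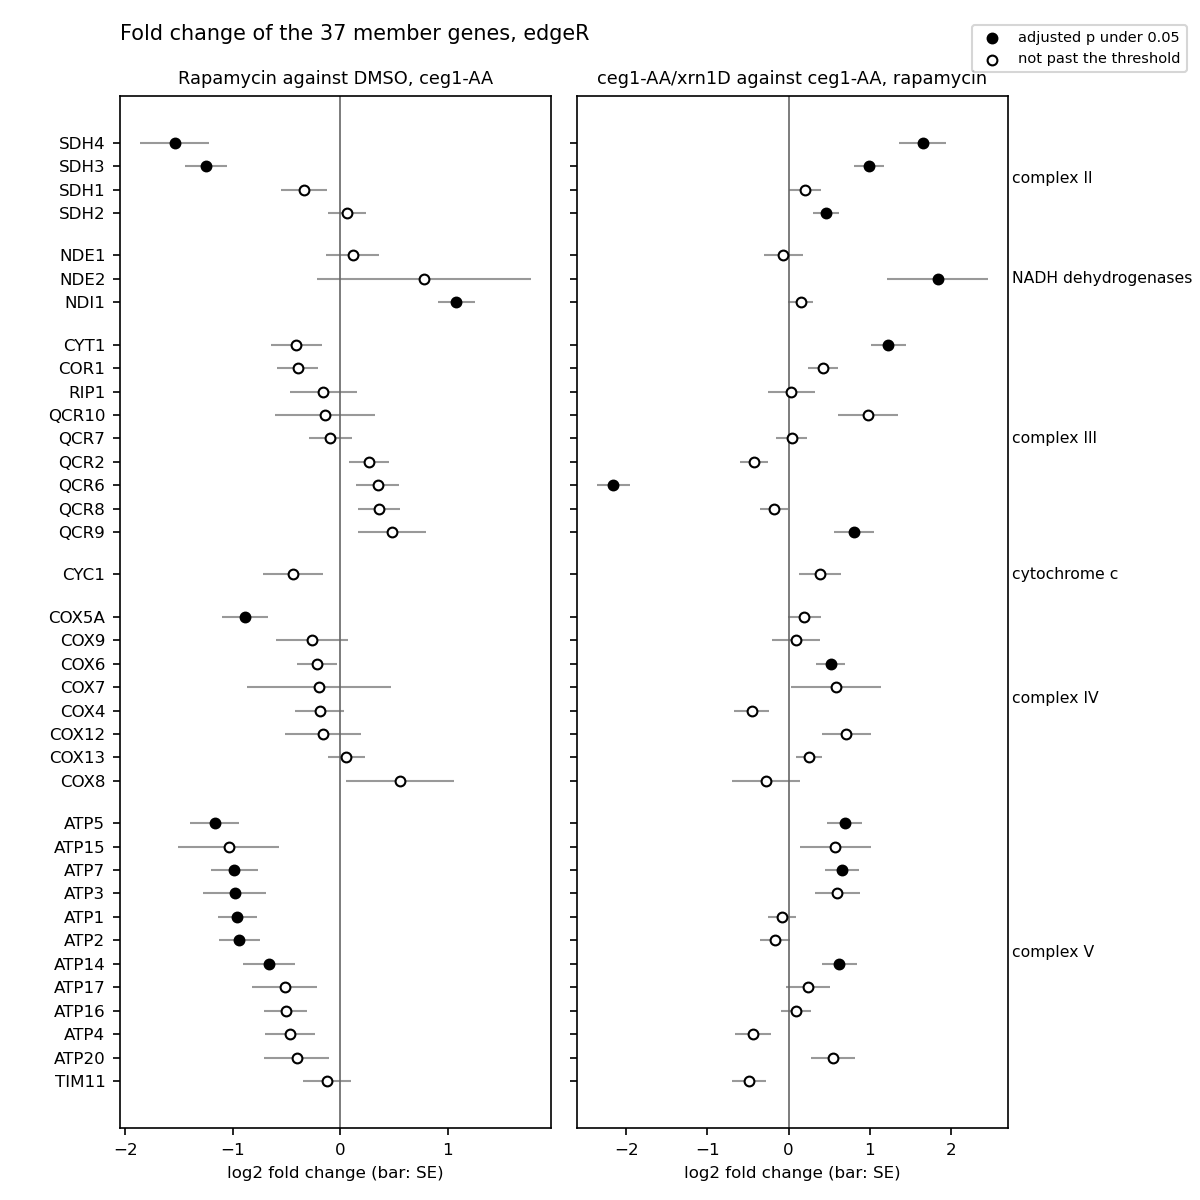
Log2 fold change (points, with SE bars) of the 37 genes from edgeR for rapamycin against DMSO in ceg1-AA and for the 2 strains under rapamycin (ceg1-AA/xrn1D over ceg1-AA), by complex. Filled points passed an adjusted p of 0.05: NDI1 and 9 lower genes in the left panel, and 10 higher genes and QCR6 in the right panel.

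A ratio of ATP synthase to complex III within each library showed the same separation without any scaling. Summed TPM of the 12 ATP synthase genes over the complex III genes other than QCR6 was 2.26 and 2.21 with DMSO and 1.40 and 1.37 with rapamycin in ceg1-AA. The 2 groups did not overlap. In ceg1-AA/xrn1D the ratio was 1.52 under DMSO and 1.31 and 1.26 under rapamycin. With QCR6 included the ratio was 1.67 and 1.66 with DMSO and 0.990 and 0.951 with rapamycin in ceg1-AA, 1.40 in ceg1-AA/xrn1D DMSO, and 1.21 and 1.18 in ceg1-AA/xrn1D rapamycin. The DMSO library of ceg1-AA/xrn1D thus lay nearer to the rapamycin libraries of ceg1-AA without QCR6 and nearer to its DMSO libraries with QCR6. An exact two-sided permutation test of 2 against 2 libraries gave p = 0.333, the smallest it can give, so these ratios are given as values.

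The strains were next compared under rapamycin, which asks what differs in these mRNAs after Ceg1 removal when XRN1 is disrupted. The complex II anchors SDH3 and SDH4, the catalytic SDH2, the cytochrome c1 gene CYT1, and 3 peripheral stalk genes of ATP synthase were among 10 members that were higher in ceg1-AA/xrn1D. QCR6 was the only member that was lower. Among all genes tested, 21.2% were higher and 22.5% lower at an edgeR adjusted p under 0.05, so the 27% of members that were higher lay near the background and the 2.7% that were lower were below it. The median log2 fold change was 0.25 for members and 0.02 for all genes tested. Without an overlap between the strains were 19 higher and 5 lower members, beside 38.5% and 36.8% of all genes tested. At least 2-fold in every pair were 2 members higher (SDH4, CYT1) and 1 lower (QCR6), beside 5.19% and 5.51%. These 2 comparisons share the ceg1-AA rapamycin libraries, so a gene measured too low there would have a lower value in the first and a higher value in the second.

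QCR6 had 241 and 213 CPM in ceg1-AA rapamycin and 56.1 and 45.2 CPM in ceg1-AA/xrn1D rapamycin, and the groups were far apart. The log2 fold change was -2.16 ± 0.20 (SE, edgeR adjusted p = 3.49e-05), from -2.33 to -2.02 over 12 alternatives. The ceg1-AA/xrn1D DMSO library stood at 49.5 CPM and the ceg1-AA DMSO libraries at 214 and 140 CPM, so the gene was low in all 3 ceg1-AA/xrn1D libraries. QCR6 (YFR033C) lies on chrVI:224326-224769, minus strand, as a coding sequence without introns, it overlaps no annotated gene, and the nearest gene, PHO4, is 251 bases away. Relative to the median TPM of the other 8 complex III genes, QCR6 was at 3.02 and 3.18 in the DMSO libraries of ceg1-AA, 3.66 and 4.30 in ceg1-AA rapamycin, 0.804 in ceg1-AA/xrn1D DMSO, and 0.721 and 0.619 in ceg1-AA/xrn1D rapamycin. It was thus above the median of its partners in all 4 ceg1-AA libraries and below that median in all 3 ceg1-AA/xrn1D libraries.

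CYT1 (YOR065W) went the other way. It had 53.3 and 49.7 CPM in ceg1-AA rapamycin and 119 and 123 CPM in ceg1-AA/xrn1D rapamycin, with no overlap. The log2 fold change was 1.23 ± 0.21 (SE, edgeR adjusted p = 0.00101), and it passed in all 12 alternatives. Under DMSO it stood at 122 CPM in ceg1-AA/xrn1D and at 84.4 and 50.7 CPM in ceg1-AA. QCR9, at 33.7 and 39.6 CPM against 20.0 and 21.9 CPM, also passed (0.81 ± 0.24, SE, edgeR adjusted p = 0.0204), but lost the call in 4 of 12 alternatives, DESeq2 among them. RIP1 had 126 and 77.5 CPM in ceg1-AA rapamycin and 115 and 93.5 CPM in ceg1-AA/xrn1D rapamycin. CYC1 had 51.4 and 39.8 CPM and 55.5 and 63.7 CPM in the same groups, at 0.38 ± 0.26 (SE, edgeR adjusted p = 0.25).

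**Figure D3:**
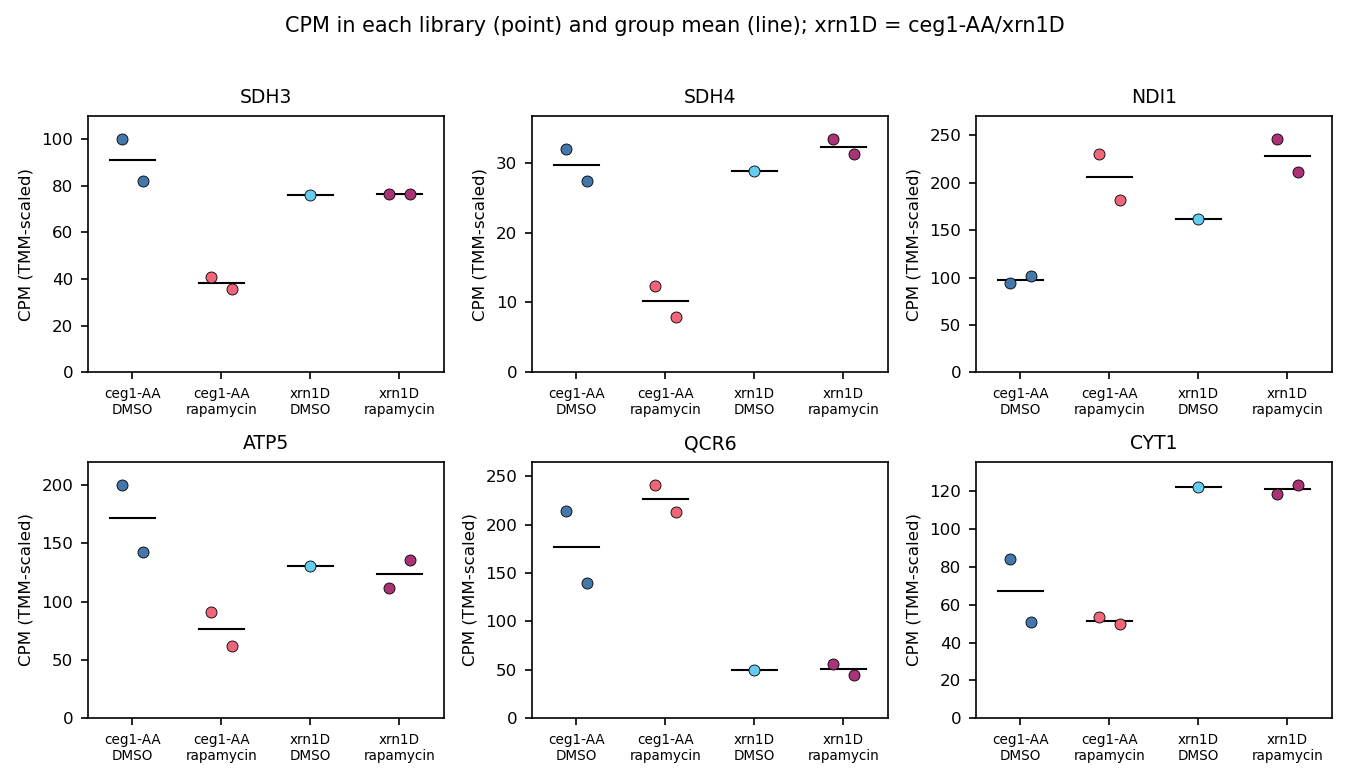
CPM (TMM-scaled, axes from 0) of SDH3, SDH4, NDI1, ATP5, QCR6 and CYT1 in each of the 7 libraries (points), with the group mean as a line. SDH3, SDH4 and ATP5 are lowest in the 2 ceg1-AA rapamycin libraries, and QCR6 is low and CYT1 high in all 3 ceg1-AA/xrn1D libraries.

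SDH4 had 33.4 and 31.2 CPM in ceg1-AA/xrn1D rapamycin against 12.4 and 7.95 CPM in ceg1-AA rapamycin, and SDH3 had 76.6 and 76.6 CPM against 41.0 and 35.8 CPM. Neither gene overlapped between the strains. The log2 fold changes were 1.65 ± 0.29 (SE, edgeR adjusted p = 0.00119) for SDH4 and 1.00 ± 0.18 (SE, edgeR adjusted p = 0.00156) for SDH3, and both held in all 12 alternatives. SDH2 passed at 0.46 ± 0.16 (SE, edgeR adjusted p = 0.0417), with 198 and 158 CPM against 143 and 115 CPM, and lost the call in 5 of 12 alternatives. SDH1, at 93.7 and 78.5 CPM against 80.9 and 68.6 CPM, overlapped between strains (0.20 ± 0.20, SE).

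Among the NADH dehydrogenases NDE2 passed at 1.84 ± 0.63 (SE, edgeR adjusted p = 0.0348), with 32.0 and 13.7 CPM against 4.76 and 7.95 CPM. The 2 ceg1-AA/xrn1D libraries differed by more than 2-fold, and the call was lost in 4 of 12 alternatives. NDI1, at 246 and 211 CPM against 231 and 182 CPM, and NDE1, at 848 and 965 CPM against 1045 and 852 CPM, overlapped between the strains.

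In complex IV COX6, the subunit VI gene whose upstream element is shown above, passed at 0.52 ± 0.18 (SE, edgeR adjusted p = 0.0353), with 175 and 177 CPM against 140 and 105 CPM. It lost the call in 5 of 12 alternatives. The highest value of the complex was 0.71 ± 0.30 for COX12, with 29.4 and 24.8 CPM against 20.0 and 12.9 CPM, and the lowest was -0.45 ± 0.21 for COX4, with 59.5 and 54.7 CPM against 83.8 and 72.5 CPM (SE). Neither passed, although neither overlapped between the strains. COX5A at 117 and 129 CPM and COX8 at 14.02 and 10.04 CPM had log2 fold changes of 0.19 and -0.28.

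In ATP synthase the peripheral stalk genes ATP5, ATP7 and ATP14 were higher, at 0.69 ± 0.22, 0.66 ± 0.21 and 0.63 ± 0.22 (SE). ATP5 had 112 and 135 CPM against 91.4 and 61.6 CPM, without overlap (edgeR adjusted p = 0.0258). Leaving out ceg1-AA rapamycin replicate 2 or ceg1-AA/xrn1D rapamycin replicate 2 ended the call of ATP5, with log2 fold changes from 0.44 to 1.00 over 12 alternatives. ATP7 and ATP14 lost theirs in 5 and 7 of 12. The catalytic genes ATP1 and ATP2 had log2 fold changes of -0.08 ± 0.18 and -0.17 ± 0.19 (SE), and the lowest was TIM11, at 106 and 69.5 CPM against 130 and 117 CPM (-0.49 ± 0.21, SE, edgeR adjusted p = 0.0815). Of the 10 higher members, 3 remained called without ceg1-AA rapamycin replicate 2 (SDH3, SDH4, CYT1), 4 with DESeq2 (the same 3 and ATP5), and 5 without each of the other 3 rapamycin libraries. COX7 and ATP3 were called higher without ceg1-AA rapamycin replicate 1, and TIM11 was called lower without ceg1-AA/xrn1D rapamycin replicate 1.

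Within ceg1-AA/xrn1D, rapamycin was compared with the 1 DMSO library without a test. None of the 37 members differed at least 2-fold in both pairs of libraries, beside 0.323% higher and 0.187% lower of all genes tested. An edgeR fit over the 7 libraries, where the lone library is assumed to vary like the other groups, called 0 members, beside 0.0340% in each direction, with 3 higher and 1 lower at an unadjusted p under 0.05. In the same direction in both pairs were 18 members higher and 5 lower, beside 39.3% and 39.2% of all genes. The mean log2 ratio ran from -0.57 for CYC1 to 0.65 for SDH2, with a median of 0.09 for members and -0.00 for all genes. SDH2 had 113 CPM under DMSO and 198 and 158 CPM under rapamycin, and CYC1 had 88.6 CPM under DMSO and 55.5 and 63.7 CPM under rapamycin. NDI1, at 162 CPM under DMSO and 246 and 211 CPM under rapamycin, was higher in both pairs, with log2 ratios of 0.60 and 0.38. SDH3 had 76.1 CPM under DMSO and 76.6 and 76.6 CPM under rapamycin, and CYT1 had 122 CPM, then 119 and 123 CPM. The 12 ATP synthase genes had a median of -0.03.

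The difference between the 2 rapamycin responses was fitted with edgeR over the 7 libraries, under the same assumption on the lone library. The response of 5 members was higher in ceg1-AA/xrn1D and that of 0 was lower, beside 11.9% and 9.66% of all genes tested. At an unadjusted p under 0.05 there were 12 and 1, the latter being NDI1, and DESeq2 was not run for this difference. The 5 were SDH4 (1.71 ± 0.41), SDH3 (1.26 ± 0.27), ATP7 (1.23 ± 0.31), ATP5 (1.09 ± 0.33) and COR1 (0.92 ± 0.29), a core protein gene of complex III, in log2 units with SE. The median over members was 0.45, and over all genes -0.10. SDH3 was the only member called in all 12 alternatives, and total counts gave 2 higher and 2 lower. Leaving out 1 library gave from 1 call (SDH3, without ceg1-AA rapamycin replicate 2 or either ceg1-AA/xrn1D rapamycin library) to 13 calls (without ceg1-AA DMSO replicate 2).

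Under DMSO the 1 ceg1-AA/xrn1D library was compared with the 2 ceg1-AA libraries, which shows how the strains differed before Ceg1 was removed. NDE2 was at least 2-fold higher in both pairs, at 20.7 CPM against 0.820 CPM (1 count) and 7.10 CPM, and QCR6 was at least 2-fold lower in both. This is 1 member in each direction of 37, beside 7.55% higher and 7.14% lower of all genes tested. The edgeR fit over the 7 libraries called 4 members higher (NDI1, NDE2, QCR9, CYT1) and 6 lower (QCR6, COX4, COX5A, ATP1, ATP2, ATP4), beside 19.2% and 20.0%. In the same direction in both pairs were 10 members higher and 19 lower, beside 44.1% and 39.5% of all genes. All 3 NADH dehydrogenase genes were higher in both pairs, with mean log2 ratios of 0.73 for NDI1, 0.64 for NDE1 and 2.53 for NDE2. Of the ATP synthase genes, 11 of 12 were lower in both pairs, with a median of -0.45. ATP1, at 265 CPM against 554 and 431 CPM, and ATP2, at 391 CPM against 840 and 594 CPM, had the lowest mean log2 ratios of the complex, -0.88 and -0.85. The median over all members was -0.22, and over all genes 0.06. As in the first comparison, the value fell with expression level across the genome (Spearman -0.57 across 5879 genes, which share these libraries). The level again came from the 2 ceg1-AA DMSO libraries, which also enter this ratio. The 4 members of the highest bin had a median of -0.66 against -0.64 for all genes there.

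**Figure D4:**
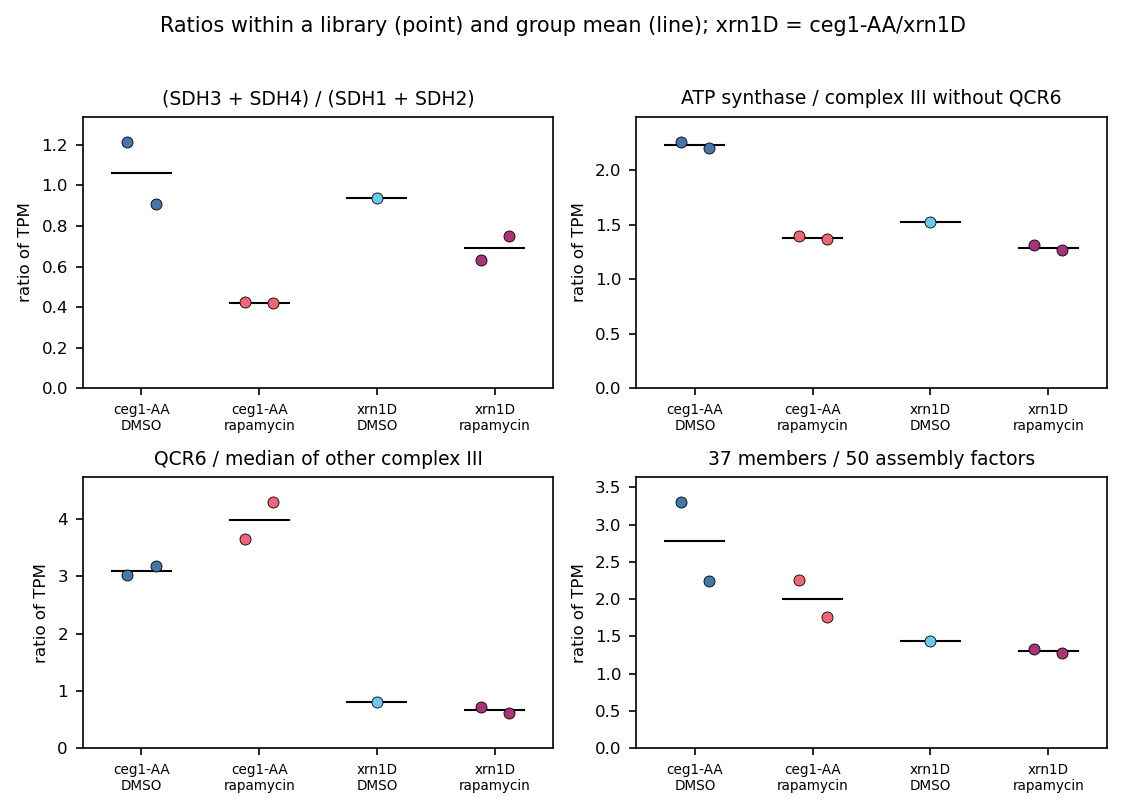
Ratios of TPM within each library (points, axes from 0) with group means as lines: complex II anchors over catalytic subunits, ATP synthase over complex III without QCR6, QCR6 over its complex III partners, and the 37 members over the 50 assembly factors. The anchor ratio is lowest in ceg1-AA rapamycin, at 0.427 and 0.418, and the QCR6 ratio is below 1 in the ceg1-AA/xrn1D libraries alone.

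Most subunit RNAs from mitochondrial DNA were all but missing in ceg1-AA/xrn1D. COX1, COX2, COX3, COB and ATP6, which encode core subunits of complexes IV, III and V, had at least 49 counts in every ceg1-AA library and at most 1 count in every ceg1-AA/xrn1D library, DMSO included. OLI1, the rotor ring subunit of ATP synthase, was still detected, at 592 CPM in ceg1-AA/xrn1D DMSO and 729 and 828 CPM in ceg1-AA/xrn1D rapamycin, against 1129 to 2226 CPM in ceg1-AA. ATP8 had 0 counts in all 7 libraries. The strains therefore differ in mitochondrially encoded RNA as well as in XRN1, and the parts of the 2 in the nuclear genes cannot be told apart in this design. In ceg1-AA, 5 of the 6 tested genes of this list were higher under rapamycin (83.3%, beside 24.3% of all genes). CPM is relative to the other RNA of a library, so an absolute rise of these RNAs was not tested. Their log2 fold changes ran from 0.64 for OLI1 to 0.98 for COX1, while ATP6 at 0.05 ± 0.49 (SE) did not pass. With total counts in place of TMM, the median over all genes tested shifted here by 0.51, and with scaling to the mitochondrially encoded transcripts themselves it shifted by -0.68.

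Several genes encode an alternative to a member. CYC7, the cytochrome c isoform used at low oxygen, had 6.67 and 12.9 CPM in ceg1-AA rapamycin and 91.4 and 75.6 CPM in ceg1-AA/xrn1D rapamycin. The groups were far apart, and the log2 fold change was 3.09 ± 0.38 (SE, edgeR adjusted p = 0.000143). The TPM ratio of CYC1 (YJR048W) to CYC7 was 7.19 and 1.54 with DMSO and 7.99 and 3.18 with rapamycin in ceg1-AA, 1.99 in ceg1-AA/xrn1D DMSO, and 0.634 and 0.878 in ceg1-AA/xrn1D rapamycin, so CYC7 exceeded CYC1 in the last group alone. COX5B, the low-oxygen partner of COX5A, fell under rapamycin in ceg1-AA as COX5A did, at -0.90 ± 0.31 (SE, edgeR adjusted p = 0.034). STF1, SHH3 and SHH4 were also higher in ceg1-AA/xrn1D under rapamycin, by 2.40, 0.64 and 0.88. SHH3 and SHH4 are paralogues of SDH3 and SDH4. INH1, the inhibitor of ATP hydrolysis by the synthase, was lower at -1.28 ± 0.41 (SE, edgeR adjusted p = 0.0269). ATP18 and ATP19 did not pass the filter, and COX26 and SDH9 passed in neither comparison.

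HAP4, the regulated subunit of the CCAAT-binding activator, had 41.8 and 51.7 CPM with DMSO and 120 and 93.4 CPM with rapamycin in ceg1-AA, with no overlap. It rose, with a log2 fold change of 1.20 ± 0.20 (SE, edgeR adjusted p = 0.000691), and the other 4 HAP genes did not pass, at 0.28 to 0.71. Of the 17 members with the upstream letters, 1 rose (NDI1) and 3 fell (ATP3, ATP7, ATP14) in the same comparison, beside the 24.3% and 22.8% of all genes given above. Their median log2 fold change was -0.22, beside -0.33 for the 20 members without the letters and 0.10 for all 485 tested genes with them. In ceg1-AA/xrn1D under rapamycin HAP1 and HAP3 were lower than in ceg1-AA, at -0.72 and -0.77. HAP4 did not rise within ceg1-AA/xrn1D, with a mean log2 ratio of -0.34 for rapamycin against the 1 DMSO library. That DMSO library was above the ceg1-AA DMSO libraries in HAP4 by a mean log2 ratio of 1.12.

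The 50 assembly and expression factors, which insert cofactors, translate mitochondrial mRNAs or build the complexes, had a higher median than the subunits in both tested comparisons. Under rapamycin in ceg1-AA 14 rose and 3 fell (28% and 6%, beside 24.3% and 22.8% of all genes, median 0.23), the highest being AEP3 at 1.56 and the lowest past the threshold COA3 at -0.90. Between the strains under rapamycin 25 had higher and 3 had lower levels where XRN1 was disrupted (50% and 6%, beside 21.2% and 22.5% of all genes, median 0.61), from COX17 at 2.26, a copper carrier for complex IV, to PET122 at -1.38. Under DMSO 13 of 50 were at least 2-fold higher in ceg1-AA/xrn1D in both pairs (26%, beside 7.55% of all genes, median 0.72). Summed TPM of the members over that of the 50 factors was 3.31 and 2.25 with DMSO and 2.26 and 1.76 with rapamycin in ceg1-AA, 1.43 in ceg1-AA/xrn1D DMSO, and 1.33 and 1.28 in ceg1-AA/xrn1D rapamycin. All 3 ceg1-AA/xrn1D libraries were thus below all 4 ceg1-AA libraries.

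The 2 lists also held different letters downstream of the stop codon. Puf3, an RNA-binding protein of yeast, binds mRNAs of mitochondrial biogenesis through elements with a UGUA core. The letters TGTANATA, searched after values had been seen on the gene's strand in the 200 bases after the stop codon, occurred in 42 of 50 assembly factors (84%), in 4 of 37 members (10.8%: SDH1, COX8, ATP1 and TIM11) and in 844 of 5898 protein-coding genes (14.3%). Between the strains under rapamycin the median log2 fold change was 0.65 for the 42 factors and 0.46 for the 8 factors without the letters. It was 0.42 for the 33 members without them, -0.18 for the 4 members with them and 0.19 for all 812 tested genes with them. Under DMSO the medians of the mean log2 ratios were 0.76 and 0.69 for the factors with and without the letters. They were -0.15 for the members without them, -0.38 for those with them and 0.21 for all 812 genes. A role of the letters was not tested. The match of a member, ATP1, and the pair of matches after COX17, the assembly factor with the highest value, are shown with the 8 matched bases in capitals.
ATP1, chrII:38729-38758, plus strand: tcaaaaagaaaTGTAAATAtagaaatttta
COX17, chrXII:131155-131184, minus strand: caaccatttctTGTATATAtaagaataggt
COX17, chrXII:131110-131139, minus strand: tatatactaccTGTAAATAtgtgcgatgca

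The tricarboxylic acid cycle feeds the chain with NADH and succinate. Under rapamycin in ceg1-AA 9 of its 11 genes fell (81.8%, beside 22.8% of all genes), with a median of -0.80. The lowest value was at LSC2, a succinyl-CoA ligase subunit (-1.56 ± 0.18, SE). Under rapamycin 6 of the 11 were higher in ceg1-AA/xrn1D than in ceg1-AA (54.5%, beside 21.2% of all genes). The highest was IDH2, an isocitrate dehydrogenase subunit, at 2.09 ± 0.15 (SE). Of 7 carrier and porin genes, 4 fell and 1 rose under rapamycin in ceg1-AA (57.1% and 14.3%, beside 22.8% and 24.3% of all genes). They ran from PET9, the main ADP/ATP carrier, at -1.81 to AAC1, its minor isoform, at 1.53. Between the strains under rapamycin 2 of the 7 were higher and 2 lower, from DIC1 at 0.95 to AAC3 at -1.83. Each is 28.6%, near the 21.2% higher and 22.5% lower of all genes. Of 10 glucose-repressed genes outside the chain, 6 rose and 3 fell under rapamycin in ceg1-AA, from PCK1 at 2.13 to HXK1 at -3.00. These are 60% and 30%, beside 24.3% and 22.8% of all genes. HXK1 is the gene in which the ceg1-AA DMSO replicates differed most within this list, and the summed CPM of the list was 728 and 3623 with DMSO and 746 and 883 with rapamycin in ceg1-AA, and 2018 to 2405 in ceg1-AA/xrn1D.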

How the data were processed

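Total RNA of 7 libraries was analysed. The deposited files hold whole-number counts per open reading frame, made by the authors and not normalized, and TPM values, which equal count over length and a deposited bias factor, rescaled per library. Per the submitters' processing notes, FastQC 0.11.5, HISAT2 2.1.1, SAMtools 1.15.1, DESeq2 and build R64 were used; the counting program and its use of strand are not given in the sources used here. No member overlaps an annotated gene in RefSeq R64. Counts were filtered with filterByExpr, scaled by TMM and fitted with edgeR 4.0.16 (quasi-likelihood, 1 coefficient per group over 7 libraries, R 4.3.3), with Benjamini-Hochberg adjustment over 5879 genes and a threshold of 0.05. Comparisons with the lone ceg1-AA/xrn1D DMSO library use log2 CPM ratios (prior count 2) and no test; edgeR calls for them, the interaction fit and DESeq2 1.42.0 were alternatives. The edgeR fit was tested on simulated data. Members, lists and tests were chosen with earlier results of these data known; motifs and the bias-factor alternative were chosen after values were seen. Values in every library are given by rule for the NADH dehydrogenases, CYC1, RIP1 and the highest and lowest member of each complex in the tested comparisons; SDH3 per-library values and other members shown in full were added because results turned on them. Totals of 935651 to 3385761 counts limit precision most for low genes such as NDE2, and PCR reads carry no molecular identifiers.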

Additional observations from a re-analysis of the deposited data

Results flagged for a closer look

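The responses of 5 members to rapamycin differed between the strains in an edgeR interaction test that treats the lone ceg1-AA/xrn1D DMSO library as varying like the other groups. They are 13.5% of the members, near the 11.9% of all genes tested. Of the 5, only SDH3 was still called without ceg1-AA rapamycin replicate 2 or without either ceg1-AA/xrn1D rapamycin library. The log2 difference was 1.71 ± 0.41 for SDH4 (SE, edgeR adjusted p = 0.0158), with pair ratios of rapamycin to DMSO from -1.89 to -1.09 in ceg1-AA and 0.11 to 0.21 in ceg1-AA/xrn1D. It was 1.26 ± 0.27 for SDH3 (SE, edgeR adjusted p = 0.0108), with -1.46 to -0.99 and 0.01 to 0.01. It was 1.23 ± 0.31 for ATP7 (SE, edgeR adjusted p = 0.0192), 1.09 ± 0.33 for ATP5 (SE, edgeR adjusted p = 0.0386) and 0.92 ± 0.29 for COR1 (SE, edgeR adjusted p = 0.0447).

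A further 2 members, ATP14 and ATP16, had pair ratios below 0 in all 4 pairs of ceg1-AA and above 0 in both pairs of ceg1-AA/xrn1D. The mean ratios differed by 0.90 for ATP14 and 0.63 for ATP16, and neither passed the interaction test (edgeR adjusted p = 0.0624 and 0.116). The ceg1-AA/xrn1D strain also had at most 1 count of 5 mitochondrially encoded transcripts, and these differences cannot be assigned to XRN1 alone in this design. No group had the 4 libraries needed to look for an outlying library.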

How the results depend on the processing

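In ceg1-AA, rapamycin against DMSO gave 1 higher and 9 lower members. Total counts alone gave 8 and 3 with a median log2 fold change of 0.25, and scaling to mitochondrially encoded transcripts gave 0 and 19 with a median of -1.05. Over all genes these scalings gave 2909 higher and 649 lower, and 80 and 1899. Leaving out 1 library gave 1 to 4 higher (4 without ceg1-AA DMSO replicate 1) and 6 to 15 lower (15 without ceg1-AA DMSO replicate 2). Between strains under rapamycin, 10 higher and 1 lower became 4 higher with DESeq2 and 2 lower with the bias factor as offset. The bias factor also removed SDH2, COX6 and ATP14 from the higher members. With only these libraries fitted there were 5 lower, and COR1, QCR10, COX12 and ATP3 joined the higher members. Total counts added COR1 and QCR10 to them. When 1 library was left out there were 3 to 7 higher and 1 to 2 lower, with medians of 0.0919 to 0.51. Between strains under DMSO, 1 higher and 1 lower became 4 and 0 with total counts (median 0.32), 3 and 3 at 1.5-fold, 4 and 6 by edgeR, and 2 to 5 and 1 to 5 without 1 library. Within ceg1-AA/xrn1D both counts were 0 in every alternative run.

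Replicate numbers share only a number in the labels. The deviations of same-numbered libraries correlated at 0.131 for the 2 ceg1-AA groups and -0.027 for the 2 rapamycin groups. With the replicate block the first comparison gave 1 higher and 9 lower members, and the second 11 higher and 2 lower.

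Some directions turned for genes past no threshold. With total counts the rapamycin response in ceg1-AA was 0.36 for RIP1, 0.0750 for CYC1, 0.18 for SDH1, 0.11 for CYT1, 0.33 for COX4, 0.35 for COX12 and 0.39 for TIM11. With mitochondrial scaling it was -0.53 for NDE1, -0.63 for SDH2, -0.20 for QCR9, -0.29 for QCR6 and -0.11 for COX8. SDH2 was at -0.00621 with DESeq2 size factors, -0.00823 with DESeq2 and -0.0280 with only these libraries. Without 1 library the ranges were -0.24 to 0.60 for NDE1, -0.17 to 2.87 for NDE2, -0.57 to 0.48 for RIP1, -0.79 to 0.0647 for CYC1, -0.10 to 0.20 for SDH2, -0.71 to 0.0213 for CYT1, -0.48 to 0.20 for COX4, -0.51 to 0.12 for COX12 and -0.28 to 0.0675 for TIM11. Between strains under rapamycin NDE1 was at 0.0235 with total counts and 0.0185 with the bias factor, RIP1 at -0.0246 with the bias factor, and the ranges without 1 library were -0.0115 to 0.33 for NDI1, -0.20 to 0.0877 for NDE1, -0.27 to 0.42 for RIP1 and -0.66 to 0.27 for COX8. Under alternatives, 446 values of the named or called members kept direction and side of the threshold. A further 48 lost and 19 gained a call, and 36 turned. A value without an adjusted p was counted among the 446 if it kept its direction. The cause of these changes was not tested. Depth limits the low genes: NDE2 had 1 count in ceg1-AA DMSO replicate 1.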
